A study of Caenorhabditis elegans with 12 samples.

Results

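The comparison described here asked whether the difference between hrg-2 mutants and wildtype Caenorhabditis elegans depended on the heme supplied. For each probe set, the genotype effect (mutant minus wildtype) at 20 µM heme minus the genotype effect at 4 µM heme, called the interaction below, was computed on the log2 scale. A positive interaction means that the mutant value, set against wildtype, was higher at 20 µM than at 4 µM. All 12 of the 12 arrays entered, and 22548 of the 22625 probe sets, the other 77 being array controls. The 4 groups of 3 arrays were hrg-2 mutants with 20 µM heme, wildtype with 20 µM heme, hrg-2 mutants with 4 µM heme and wildtype with 4 µM heme, all from animals in the middle to late part of L4, the last larval stage. The labels give no allele for the mutant. Each group carries title numbers 1, 2 and 3, so the interaction was also computed from the 4 arrays of each number, which no other number uses.

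The worm lacks the enzymes of heme synthesis, so its heme comes from food through the intestine and is passed on to other tissues. Heme importers, a secreted heme chaperone and a heme exporter are known to be made in larger amounts when heme is scarce. HRG-2 lies in membranes of the hypodermis, the epidermis that makes the cuticle, and takes part in heme use there.

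The values were deposited as log2 expression values, and their precision is limited by the number of arrays. Nothing in the labels says whether the arrays of a group stem from separate cultures, so each p-value measures only the spread between these samples, and that spread may be technical. With 0 probe sets annotated to hrg-2, the mutated gene itself could not serve as a check of the genotype labels. The arrays numbered 3 stood apart from those numbered 1 and 2: over the 75 measured sperm genes, the median over genes of the number 3 value minus the mean of numbers 1 and 2 was 1.97 in mutants at 20 µM, 2.14 in wildtype at 20 µM, 4.17 in mutants at 4 µM and 2.48 in wildtype at 4 µM (log2). Sperm are made at this stage, whereas yolk protein genes are known to be expressed mainly by adults. The median level of the 5 vitellogenin (yolk protein) genes nevertheless lay between 5.27 and 9.66 over the 12 arrays. Each array holds RNA of many tissues, so fewer cells of a type and less RNA per cell cannot be told apart in any value below.

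No probe set passed the test of the interaction. Limma called 0 of 22548 (0.0%) at an adjusted p of 0.05, and the smallest adjusted p was 0.674. At an unadjusted p under 0.05 there were 372 probe sets, 1.65% of those tested, which is fewer than the 1127 expected by chance. The cause of this low count was not tested. The interaction was positive in 10782 probe sets (47.8%), with a median of -0.02. Its size was at least 1 log2 unit in 737 probe sets and at least 2 in 24. The median SE of an interaction was 0.42, with quartiles of 0.31 and 0.62, so for many probe sets a difference of 1 log2 unit lay inside the 95% interval around 0. Across probe sets, the mean genotype effect at 20 µM correlated with that at 4 µM with Pearson's r of 0.42 and Spearman's rho of 0.38. These are a description over 22548 probe sets, which share arrays and are not independent.

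**Figure D1:**
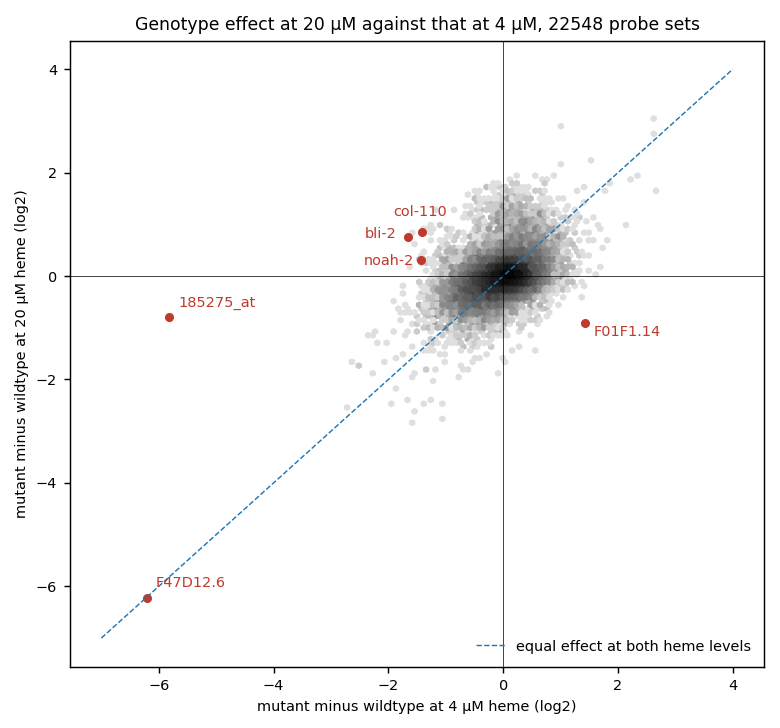
Genotype effect (mutant minus wildtype, log2, mean of 3 arrays a group) at 20 µM heme (vertical axis) against that at 4 µM heme (horizontal axis), for 22548 probe sets drawn as grey density on a log shade, with 6 named in red. F47D12.6 lies on the dashed line of equal effects, and a probe set without a gene name, the red point on the left near 0, lies far above it, with an effect of -0.80 at 20 µM and -5.81 at 4 µM.

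The interaction of smallest p and of greatest size belonged to a probe set that the annotation pairs with no gene. Whether it measures hrg-2, the gene mutated here, was not settled by the sources used. Its log2 values at 20 µM were 3.78, 3.84 and 3.17 in mutants and 5.06, 4.93 and 3.20 in wildtype, for numbers 1, 2 and 3. At 4 µM they were 3.55, 4.00 and 3.19 in mutants and 8.79, 10.07 and 9.32 in wildtype. The 3 wildtype arrays at 4 µM thus stood above the other 9, with no overlap, and the genotypes overlapped at 20 µM. The interaction was 5.01 ± 0.71 (SE; 95% interval 3.44 to 6.59), which is 32.3-fold, and it was 3.95, 4.98 and 6.10 within numbers 1, 2 and 3. Its unadjusted p was 3e-05 and its limma adjusted p 0.674. Set side by side by heme, its group means were 3.59 ± 0.37 at 20 µM and 3.58 ± 0.41 at 4 µM in mutants, and 4.39 ± 1.04 at 20 µM and 9.39 ± 0.65 at 4 µM in wildtype (SD, n = 3 each). With the title number as a block the SE was 0.51 and the adjusted p 0.0530. Array weights gave it a limma adjusted p of 0.04997, the 1 call that any alternative fit to the 12 arrays made.

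F47D12.6, which also has a large genotype difference, did not share that pattern. It had log2 values of 2.71, 2.98 and 2.48 in mutants and 8.95, 9.25 and 8.63 in wildtype at 20 µM. At 4 µM it had 2.79, 2.54 and 2.88 in mutants and 9.12, 9.32 and 8.36 in wildtype. The genotypes were far apart at both heme levels, by -6.22 at 20 µM and -6.20 at 4 µM. The interaction of F47D12.6 was -0.02 ± 0.38 (SE), with a 95% interval of -0.88 to 0.83, and 0.11, 0.51 and -0.67 within numbers 1, 2 and 3.

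F01F1.14 had the second smallest p. Its log2 values at 20 µM were 3.67, 4.35 and 4.31 in mutants and 5.42, 5.31 and 4.36 in wildtype. At 4 µM they were 5.58, 5.38 and 6.12 in mutants and 4.11, 4.05 and 4.62 in wildtype. Mutants were below wildtype at 20 µM and above wildtype at 4 µM, with no overlap at either heme level, although the nearest values at 20 µM differed little. The interaction was -2.35 ± 0.47 (SE; interval -3.39 to -1.30), or -3.22, -2.28 and -1.55 by number. The unadjusted p of F01F1.14 was 0.0005 and its limma adjusted p was 1.00.

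**Figure D2:**
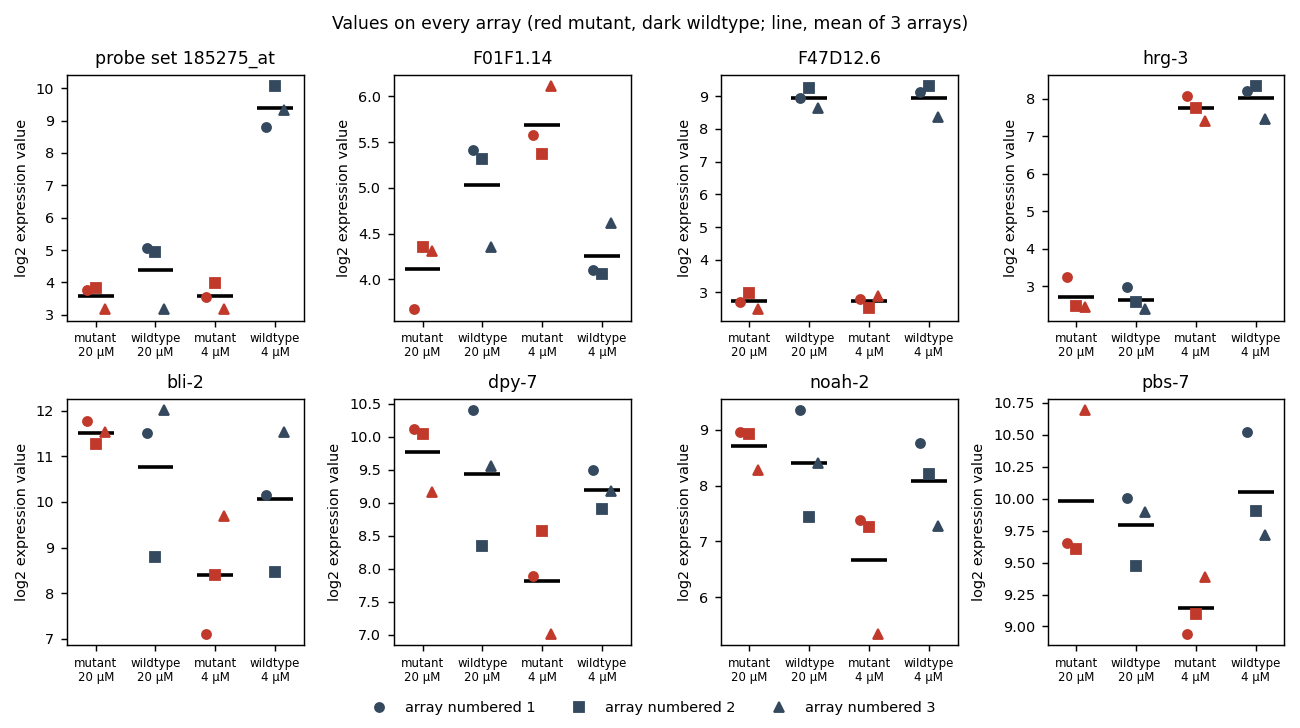
Log2 expression value (vertical axes, each with its own range) on every array for 8 probe sets, by group, with mutants in red left of wildtype in dark blue and 20 µM left of 4 µM; symbols give the title number and lines the group mean (n = 3). For the probe set without a gene name (first panel) the 3 wildtype arrays at 4 µM stand above all others, for F47D12.6 genotypes separate at both heme levels, for hrg-3 heme levels separate in both genotypes, and for dpy-7 and pbs-7 the mutants at 4 µM are below wildtype at 4 µM.

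Among heme trafficking genes, the annotation gave a probe set for 7, and 0 of the 7 passed the test. The secreted heme chaperone hrg-3 had 3.25, 2.47 and 2.45 in mutants and 2.98, 2.59 and 2.38 in wildtype at 20 µM. It had 8.09, 7.75 and 7.42 in mutants and 8.21, 8.35 and 7.48 in wildtype at 4 µM. All 6 arrays at 20 µM were below all 6 at 4 µM, and the genotypes overlapped at each heme level. The values at 20 µM lay not far above the lowest value of each array, 1.76 to 1.92, so a lowering in 1 genotype there could hardly show. The heme effect (20 µM minus 4 µM) of hrg-3 was -5.03 in mutants and -5.36 in wildtype, and the interaction was 0.33 ± 0.44 (SE; interval -0.65 to 1.31). For hrg-7, a secreted protein related to aspartic proteases that takes part in heme signalling between tissues, the heme effect was -4.19 in mutants and -4.19 in wildtype. Its interaction was 0.00 ± 0.34 (interval -0.74 to 0.75), with -0.05, -0.58 and 0.64 by number.

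The heme importers gave wider intervals in the fit without a block. The intestinal importer hrg-4 had 4.23, 4.40 and 2.80 in mutants and 5.00, 4.67 and 3.79 in wildtype at 20 µM. It had 9.02, 9.22 and 7.69 in mutants and 8.91, 9.21 and 8.10 in wildtype at 4 µM. The heme levels did not overlap, and in each group the array numbered 3 was lowest. The heme effect of hrg-4 was -4.83 in mutants and -4.25 in wildtype. Its interaction was -0.58 ± 0.77 (interval -2.30 to 1.14) and was negative by number, at -0.89, -0.28 and -0.58. For hrg-1, the importer of lysosome-related organelles, the heme effect was -2.95 in mutants and -3.42 in wildtype. The interaction of hrg-1 was 0.46 ± 0.71 (interval -1.11 to 2.03), and it was positive by number, at 0.58, 0.45 and 0.36.

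The heme exporter mrp-5 had a heme effect of -1.54 in mutants and -1.48 in wildtype, and an interaction of -0.06 ± 0.44 (interval -1.05 to 0.92). Another probe set of mrp-5 gave 0.39. The interaction of hrg-10 was 0.14 ± 0.36 (interval -0.67 to 0.94). For hrg-9, which moves heme out of storage sites, log2 values at 20 µM were 6.47, 6.80 and 6.26 in mutants and 6.61, 6.76 and 7.37 in wildtype. At 4 µM they were 8.49, 7.97 and 7.24 in mutants and 7.36, 7.36 and 8.37 in wildtype. The heme levels separated in mutants and overlapped in wildtype, where the array numbered 3 was highest at each heme level. The interaction of hrg-9 was -0.61 ± 0.53 (interval -1.79 to 0.57), with -1.27, -0.58 and 0.02 by number. With the title number as a block the SE was smaller for the importers, at 0.223 for hrg-1 and 0.285 for hrg-4. The importers then had the smallest SE of the 7, beside 0.286 for hrg-7, 0.289 for hrg-3, 0.354 for mrp-5, 0.362 for hrg-10 and 0.552 for hrg-9. Limma's unadjusted p with the block was 0.065 for hrg-1 and 0.068 for hrg-4, and 0 of the 7 genes passed the adjusted test there either.

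The sign of the interaction followed the title number. Across probe sets, the interactions within numbers 1 and 2 correlated with r of 0.56 (rho 0.52), those of numbers 1 and 3 with r of -0.25 (rho -0.24), and those of numbers 2 and 3 with r of -0.24 (rho -0.26). The parts of the interaction behaved alike: the genotype effect at 20 µM gave r of 0.65 for numbers 1 and 2, -0.02 for 1 and 3 and -0.11 for 2 and 3. At 4 µM the corresponding values were 0.66, -0.21 and -0.13. These correlations describe 22548 probe sets, and the 3 numbers share no array.

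**Figure D3:**
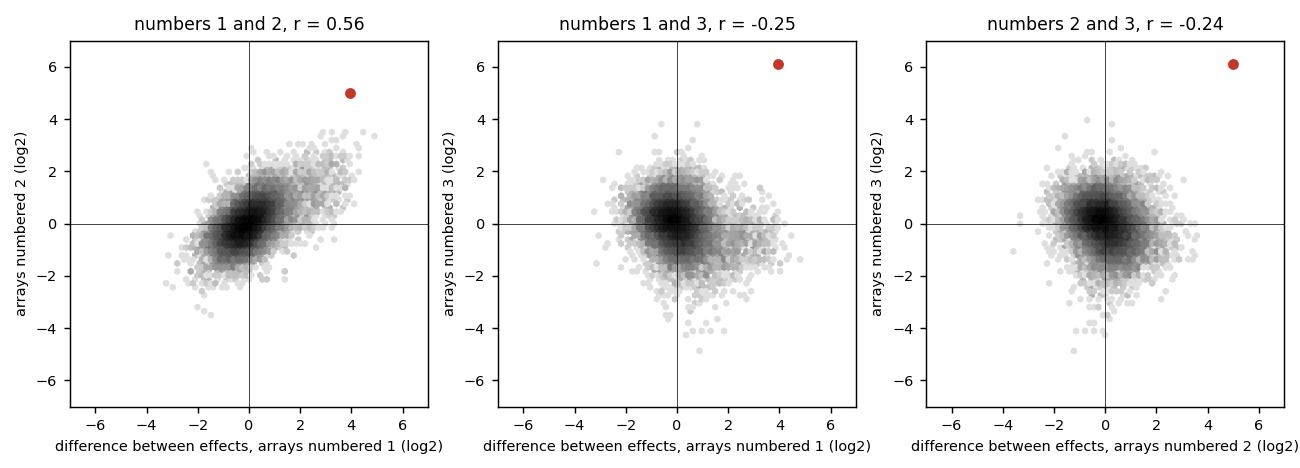
Interaction (genotype effect at 20 µM minus that at 4 µM, log2) from the 4 arrays of 1 title number against that of another, for 22548 probe sets as grey density on a log shade; the red point is the probe set without a gene name. Numbers 1 and 2 run along a rising diagonal (r = 0.56), and number 3 runs weakly against both (r = -0.25 and -0.24).

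The interaction had the same sign in all 3 numbers in 5565 probe sets, 24.7% of those tested. That share is near the one that 3 independent and evenly split signs would give. Of these, 2892 were positive (12.8%) and 2673 negative (11.9%). Centring each array on its median lowered every interaction by 0.136 and turned this split to 1800 positive and 3572 negative. Same-signed interactions of at least 1 log2 unit in every number were found in 38 probe sets with a positive sign (0.169%) and in 6 with a negative sign (0.0266%). After median centring there were 25 positive and 19 negative, and after a repeated quantile normalization 24 and 10. These counts describe signs and sizes and are not tests.

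With each gene taken by its probe set of highest mean, 30 genes were positive by this size rule. Cuticle collagens made up 8 of the 30, against 146 of the 17138 genes measured, and genes of the molting list 0 of 30, although other probe sets of the molting genes mlt-9 (1.45, 1.03 and 1.42 by number) and noah-1 (1.00, 1.99 and 1.65 by number) are among the 38. A fixed size is reached more easily by genes that vary more between arrays, so the 8 of 30 does not measure enrichment. Among collagens that met the rule, the SE was 1.63 for col-138, 1.18 for col-79, 1.02 for col-176 and 0.67 for dpy-3, beside a median of 0.42 over all probe sets. The collagens bli-1 and bli-2, which form the struts of the adult cuticle, were among the 30. Log2 values of bli-2 at 20 µM were 11.77, 11.26 and 11.53 in mutants and 11.51, 8.79 and 12.00 in wildtype. At 4 µM they were 7.10, 8.39 and 9.69 in mutants and 10.16, 8.47 and 11.53 in wildtype. The 3 mutant arrays at 20 µM lay close together, while wildtype arrays numbered 2 were low at both heme levels, and the genotypes overlapped at each. The interaction of bli-2 was 2.41 ± 1.37 (SE; interval -0.63 to 5.46), or 3.32, 2.55 and 1.37 by number. That of bli-1, picked here after its values were seen, was 2.44 ± 1.59, or 3.61, 2.72 and 1.00 by number. The collagen col-19, looked up together with bli-1, went the other way. Its interaction was -1.01 ± 2.43, or -0.86, -1.26 and -0.89 by number.

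The collagen col-110 led the positive genes by its least value. It had 10.95, 10.78 and 10.72 in mutants and 10.71, 7.99 and 11.19 in wildtype at 20 µM. It had 6.85, 7.58 and 8.77 in mutants and 8.75, 7.78 and 10.91 in wildtype at 4 µM. As with bli-2, mutants at 20 µM lay close together, wildtype arrays numbered 2 were the lowest of their groups, and the genotypes overlapped at each heme level. The interaction of col-110 was 2.27 ± 1.31 (interval -0.65 to 5.18), or 2.14, 2.99 and 1.67 by number.

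Collagens of the circumferential furrows of the cuticle had positive values as well. For dpy-7, log2 values at 20 µM were 10.12, 10.04 and 9.16 in mutants and 10.40, 8.35 and 9.55 in wildtype. At 4 µM they were 7.88, 8.57 and 7.01 in mutants and 9.50, 8.91 and 9.17 in wildtype. Mutants at 4 µM were below wildtype at 4 µM without overlap, and the genotypes overlapped at 20 µM. The interaction of dpy-7 was 1.71 ± 0.75 (interval 0.04 to 3.38), or 1.33, 2.03 and 1.77 by number, with an unadjusted p of 0.0452 and a limma adjusted p of 1.00. The other measured furrow collagens, looked up after dpy-7 was seen, gave 1.44 ± 0.99 for dpy-2, 1.47 ± 0.67 for dpy-3, 1.12 ± 0.84 for dpy-8 and 1.36 ± 0.83 for dpy-9, each positive in all 3 numbers. The cuticle collagens as a list did not share this direction: 63 of 146 were positive, the median interaction was -0.07, and the medians by number were -0.22, -0.57 and 0.81. Same-signed positive values were held by 34 of the 146 (23.3%) and same-signed negative ones by 12 (8.22%), beside 12.9% and 12.3% of all genes. The 2 collagens of smallest p had opposite signs. The interaction was -0.84 ± 0.32 for col-105, or -1.11, -1.32 and -0.09 by number. For sqt-1 it was 0.95 ± 0.36, or 1.07, 0.49 and 1.30 by number.

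Other genes with positive values in all 3 numbers were C26B9.7 (1.79 ± 0.71), Y37A1B.7 (1.67 ± 1.02), nspg-5 (1.91 ± 0.96), clec-70, a C-type lectin (1.90 ± 1.14), cutl-18, a cuticlin-like gene (1.87 ± 1.30), Y62H9A.12 (1.74 ± 1.25), E01G4.6 (2.13 ± 1.61) and far-3, a fatty acid and retinol binding protein (1.54 ± 1.12). The same held for dyf-7 (1.71 ± 1.30), whose protein of the zona pellucida domain family anchors sensory dendrites, but another probe set of dyf-7 gave -0.29. For C26B9.7, log2 values were 9.35, 8.49 and 8.63 in mutants and 8.93, 7.21 and 9.14 in wildtype at 20 µM. They were 6.49, 7.33 and 6.56 in mutants and 7.73, 8.07 and 8.74 in wildtype at 4 µM. Mutants at 4 µM were again below wildtype without overlap, and the genotypes overlapped at 20 µM. Of the 12 positive genes with the largest least value, the 95% interval left out 0 for C26B9.7 and dpy-7 and held 0 for the other 10. With the title number as a block, limma's unadjusted p was under 0.05 for 9 of the 12, although these genes were chosen by the within-number values that this fit uses; no adjusted p passed. In 10 of the 12, leaving out 1 array moved the value by over 1.5 times, and none turned negative. Without the wildtype array numbered 2 at 20 µM, 8 of the 12 were lowered by that much, with 1.28 for col-110, 1.42 for bli-2 and 1.18 for C26B9.7. Without the wildtype array numbered 3 at 4 µM it was 5 of the 12, without the mutant array numbered 3 at 4 µM 3, among them Y37A1B.7 at 0.99, and without the mutant array numbered 1 at 20 µM 1, clec-70. In clec-70 alone among them the mutants at 20 µM were above wildtype without overlap, with 8.93, 8.14 and 5.70 in mutants and 4.70, 4.78 and 4.62 in wildtype.

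**Figure D4:**
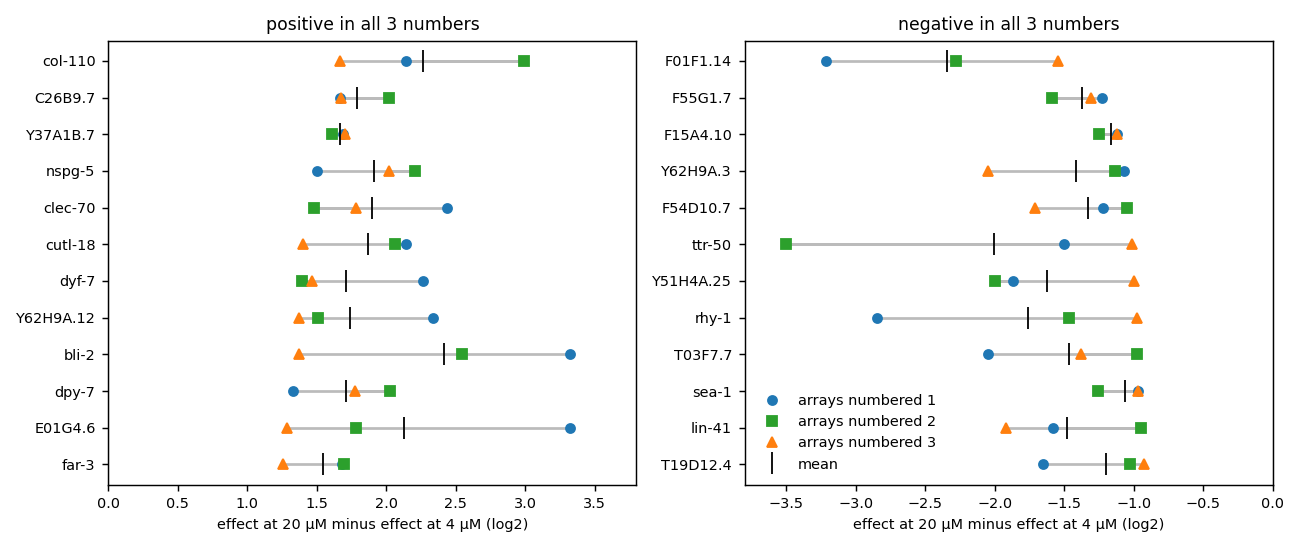
Interaction (genotype effect at 20 µM minus that at 4 µM, log2, horizontal axis) within each title number, for the 12 positive genes (left) and 12 negative genes (right) whose least of 3 values was largest; symbols give the number and the black bar the mean. The genes were chosen for this steadiness, and the bar of bli-2 at 2.41 and that of F01F1.14 at -2.35 are the farthest from 0 in their panels.

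The negative genes were fewer and of smaller least size. After F01F1.14, F55G1.7 led by its least value, with 4.57, 4.12 and 4.36 in mutants and 4.96, 5.52 and 4.50 in wildtype at 20 µM. It had 5.44, 5.37 and 5.43 in mutants and 4.60, 5.18 and 4.27 in wildtype at 4 µM. Mutants at 4 µM were above wildtype without overlap, and the genotypes overlapped at 20 µM. The interaction of F55G1.7 was -1.38 ± 0.41 (interval -2.28 to -0.47), or -1.23, -1.59 and -1.31 by number. The T-box gene sea-1, which takes part in sex determination, had 2.99, 3.03 and 3.23 in mutants and 3.34, 3.57 and 3.14 in wildtype at 20 µM. At 4 µM sea-1 had 3.44, 3.58 and 4.09 in mutants and 2.83, 2.86 and 3.03 in wildtype. Its values lay low on every array, those of mutants at 4 µM were above wildtype without overlap, and its interaction was -1.06 ± 0.28.

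For rhy-1, a regulator of the hypoxia-inducible factor HIF-1, log2 values at 20 µM were 7.83, 8.78 and 7.56 in mutants and 10.74, 10.37 and 8.65 in wildtype. At 4 µM they were 8.54, 8.36 and 7.81 in mutants and 8.60, 8.48 and 7.93 in wildtype. Here the 2 wildtype arrays numbered 1 and 2 at 20 µM stood above the other 10, and at 4 µM mutants minus wildtype was -0.06, -0.13 and -0.12 by number. The interaction of rhy-1 was -1.76 ± 0.73 (interval -3.39 to -0.14), or -2.85, -1.47 and -0.98 by number. Y51H4A.25 also had its difference at 20 µM, with 4.64, 4.93 and 4.05 in mutants and 6.40, 6.36 and 5.18 in wildtype. At 4 µM it had 6.22, 6.76 and 5.62 in mutants and 6.12, 6.19 and 5.75 in wildtype. The genotypes did not overlap at 20 µM and overlapped at 4 µM, and the interaction was -1.62 ± 0.56 (interval -2.86 to -0.39).

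The RNA-binding timing gene lin-41, known for its part in the passage from larva to adult, had 4.31, 4.25 and 4.44 in mutants and 4.85, 5.32 and 4.47 in wildtype at 20 µM. At 4 µM lin-41 had 6.37, 5.76 and 6.00 in mutants and 5.33, 5.88 and 4.10 in wildtype. Its mutants were below wildtype at 20 µM without overlap, by a margin of 0.03 for number 3, and the genotypes overlapped at 4 µM. The interaction was -1.48 ± 0.57, while another probe set of lin-41 gave 0.11. The remaining negative genes were ttr-50, of the transthyretin-related family (-2.01 ± 1.03), T03F7.7 (-1.47 ± 0.70), Y62H9A.3 (-1.42 ± 2.02), F54D10.7 (-1.33 ± 0.95), T19D12.4 (-1.20 ± 1.45) and F15A4.10 (-1.16 ± 0.72), each with an interval that held 0. Over the 12 negative genes, the interval left out 0 for 6, and with the block limma's unadjusted p was under 0.05 for 9, with the same limit on how they were chosen. Leaving out 1 array moved 6 of the 12 by over 1.5 times; without the mutant array numbered 3 at 4 µM, F15A4.10 was at -0.56, F54D10.7 at -0.40 and Y62H9A.3 at 0.31, and without the wildtype array numbered 3 at 4 µM T19D12.4 was at -0.22 and lin-41 at -0.98. For ttr-50 the value nearest 0 was -1.28, without the wildtype array numbered 2 at 20 µM.

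Gene lists were described by their counts and medians beside the same over all 17138 genes, of which 47.2% were positive with a median of -0.02. Genes of like expression level were not taken as a comparison, although same-signed interactions leaned more to positive among probe sets of higher mean. The part of expression level in the list values was not tested. After median centring the median of all genes was -0.16. Genes of 26 lists were looked at, and 0 members of any list passed the test. In the proteasome, the protease complex that degrades ubiquitin-tagged proteins, 29 of 33 subunit genes were positive, with a median of 0.33. The medians by number were 0.53, 0.56 and 0.06, the median was 0.20 after median centring, and it ranged from 0.19 to 0.51 as each array was left out. The median genotype effect of the list was 0.06 at 20 µM and -0.23 at 4 µM. The beta subunit gene pbs-7 had 9.65, 9.61 and 10.69 in mutants and 10.00, 9.48 and 9.89 in wildtype at 20 µM. It had 8.94, 9.10 and 9.39 in mutants and 10.53, 9.90 and 9.72 in wildtype at 4 µM. Mutants at 4 µM were below wildtype without overlap, and at 20 µM the genotypes overlapped.

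The interaction of pbs-7 was 1.10 ± 0.46 (interval 0.08 to 2.12), or 1.23, 0.94 and 1.13 by number. The alpha subunit gene pas-5 had 10.19, 10.41 and 10.79 in mutants and 10.67, 10.33 and 10.40 in wildtype at 20 µM. At 4 µM pas-5 had 9.40, 9.63 and 10.10 in mutants and 10.83, 10.66 and 10.37 in wildtype. Again mutants at 4 µM were below wildtype without overlap and the genotypes overlapped at 20 µM, and the interaction of pas-5 was 0.91 ± 0.33 (interval 0.16 to 1.65), or 0.95, 1.11 and 0.66 by number. Their unadjusted p-values were 0.0366 for pbs-7 and 0.0216 for pas-5, and the limma adjusted p was 1.00 for each.

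Genes of the respiratory chain, which holds heme in its cytochromes, were positive in 34 of 48, with a median of 0.17 and medians by number of 0.08, 0.17 and 0.16. Median centring, which lowered every interaction by the same amount, brought the list's median to 0.03 and that of all genes to -0.16. As each array was left out, the list's median ranged from 0.05 to 0.27. Same-signed positive values were held by 19 of the 48 (39.6%) and a same-signed negative value by 1. The complex I gene nduf-5 had 10.83, 10.70 and 10.78 in mutants and 11.00, 10.82 and 10.37 in wildtype at 20 µM. It had 10.17, 10.20 and 10.05 in mutants and 11.03, 10.96 and 10.25 in wildtype at 4 µM. Mutants at 4 µM were below wildtype without overlap, by 0.61 on average, and the interaction of nduf-5 was 0.65 ± 0.33 (interval -0.09 to 1.39). That of cox-15, an enzyme of heme A synthesis, was 0.62 ± 0.35, or 0.76, 0.90 and 0.19 by number.

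In other heme-binding families more genes were negative than positive, as over all genes, of which 47.2% were positive. The median interaction was -0.13 over 30 globins, of which 9 were positive. In all 3 numbers 9 globins were negative and 4 positive, and the medians by number were -0.30, -0.31 and 0.04. For 73 cytochrome P450s the median was -0.09, with 32 positive (43.8%), a share near that of all genes. In all 3 numbers 15 P450s were negative (20.5%) and 11 positive (15.1%), with medians by number of -0.24, -0.18 and 0.13. Among 10 heme peroxidases and catalases the median was -0.19, with 4 positive, and the medians by number were -0.31, -0.22 and -0.24. Of these 10, 4 were negative in all 3 numbers (40.0%) and 1 positive. Over all genes 12.3% were negative and 12.9% positive in all 3 numbers. The P450 genes of smallest p were cyp-13A7, at -0.88 ± 0.32, and cyp-34A10, at -0.94 ± 0.39, and among globins glb-30 had -0.60 ± 0.29 and glb-16 -0.58 ± 0.33. Iron and metal genes were positive in 9 of 19. In that list the metallothionein mtl-2 had 0.68 ± 0.27, or 0.68, 0.40 and 0.96 by number, and cdf-1, a zinc transporter, had -0.83 ± 0.43, while another probe set of cdf-1 gave 0.16.

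Molting genes were positive in 22 of 25, with a median of 0.43 that ranged from -0.10 to 0.70 as each array was left out. Their medians by number were 0.16, 0.20 and 1.03. The apical matrix gene noah-2, needed for molting, had 8.96, 8.92 and 8.28 in mutants and 9.35, 7.45 and 8.40 in wildtype at 20 µM. At 4 µM noah-2 had 7.39, 7.26 and 5.34 in mutants and 8.77, 8.22 and 7.27 in wildtype. The mutant array numbered 3 at 4 µM was the lowest of the 12, the genotypes overlapped at both heme levels, and wildtype varied by more than 1 log2 unit within each heme level. The interaction of noah-2 was 1.75 ± 0.89 (interval -0.24 to 3.73), and that of acn-1, which is also needed for molting, was 0.79 ± 0.56, or 0.13, 0.50 and 1.74 by number. The number 3 shift of the molting list, taken as for sperm genes above, was -0.33 in mutants at 20 µM, 0.07 in wildtype at 20 µM, -1.38 in mutants at 4 µM and 0.00 in wildtype at 4 µM. Its part in the molting and collagen values was not tested.

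Germline lists had opposite signs in different title numbers. Sperm genes were positive in 64 of 75 with a median of 0.89, made up of 2.30 for number 1, 0.63 for number 2 and -0.41 for number 3. As each array was left out, the sperm median ranged from 0.03 to 2.35. Germ line genes had medians of 0.52, 0.66 and -0.58 by number, and oocyte and eggshell genes 0.32, 0.26 and -1.07. The Argonaute gene prg-1, which acts with piRNAs in the germ line, had 8.99, 9.04 and 9.07 in mutants and 8.84, 8.94 and 9.10 in wildtype at 20 µM. At 4 µM prg-1 had 7.81, 7.72 and 9.01 in mutants and 9.17, 9.06 and 8.89 in wildtype. The 2 mutant arrays numbered 1 and 2 at 4 µM were low and the other 10 lay together, so that the interaction was 1.50, 1.44 and -0.15 by number, and 0.93 ± 0.42 over all arrays. The 5 vitellogenins had medians of 0.81, -0.45 and -3.30 by number.

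**Figure D5:**
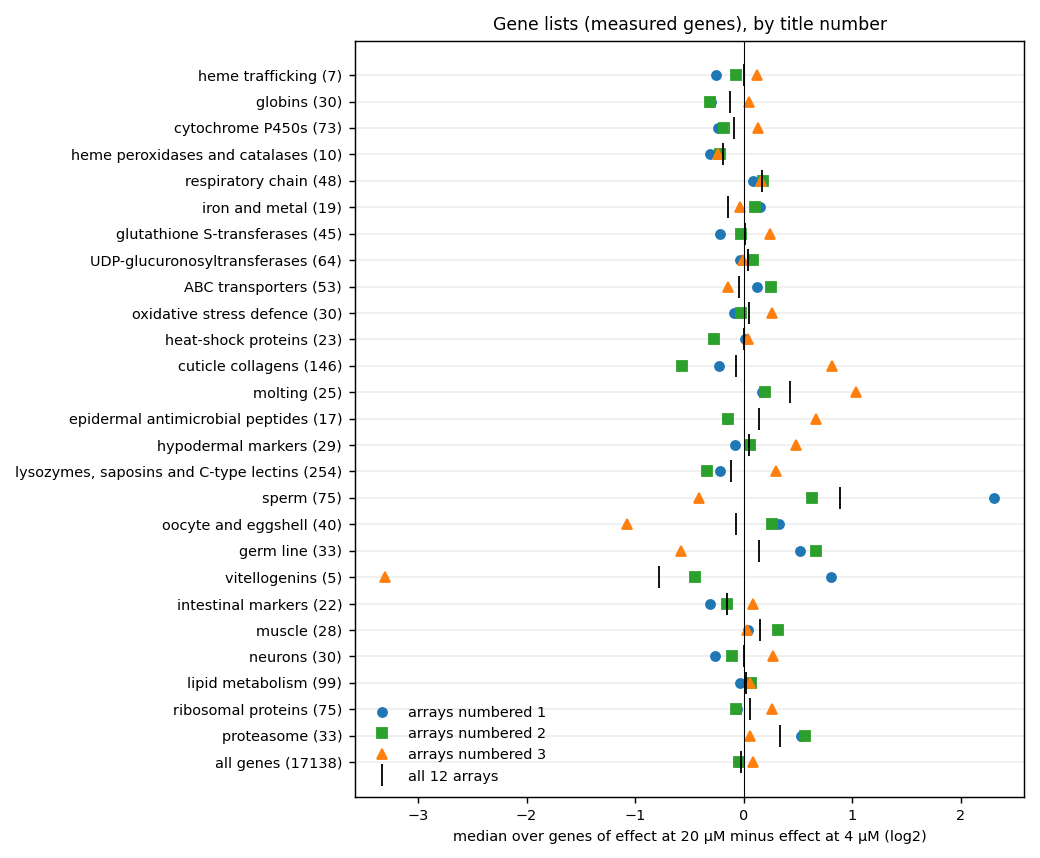
Median interaction over the measured genes of each list (log2, horizontal axis; number of genes in brackets), within title number 1 (circle), 2 (square) and 3 (triangle) and over all 12 arrays (bar). Sperm genes run to 2.30 for number 1 and -0.41 for number 3, vitellogenins to -3.30 for number 3, and respiratory chain medians are 0.08, 0.17 and 0.16.

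The arrays numbered 1 and 2 taken alone, with the title number as a block, gave 310 calls in limma, 244 positive (1.08%) and 66 negative (0.293%). This fit was chosen after the opposite sign of number 3 was seen, and has 3 residual degrees of freedom; without the block, the same 8 arrays gave 0 calls, 4069 probe sets at an unadjusted p under 0.05 and a smallest adjusted p of 0.138. Number 3, which the fit did not use, had the same sign in 62 of the 310 (20.0%), against 38.3% of all probe sets. It agreed in sign for 37 of the 244 positive calls (15.2%), against 42.8% of all probe sets positive on numbers 1 and 2. Among the 66 negative calls it agreed for 25 (37.9%), against 34.4% of all probe sets negative on numbers 1 and 2. The median size of the 310 was 2.08 on numbers 1 and 2 and 0.651 on number 3.

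Genes of smallest p on numbers 1 and 2 show this at the level of single arrays. The ferritin gene ftn-1, which stores iron, had 10.58, 10.57 and 8.17 in mutants and 8.42, 8.11 and 8.05 in wildtype at 20 µM. At 4 µM ftn-1 had 8.24, 8.40 and 9.41 in mutants and 7.97, 8.01 and 9.04 in wildtype. The 2 mutant arrays numbered 1 and 2 at 20 µM stood above the other 10, and the interaction was 1.89, 2.07 and -0.25 by number. For C50E10.1 it was 4.12, 3.04 and -0.93, for pitr-5, a phosphate transporter, 2.32, 2.21 and -0.41, and for the F-box gene fbxa-202 it was 2.51, 1.79 and -1.35. For mbug-1 it was 1.84, 2.35 and -0.77, and for F10C2.7 it was 2.51, 3.04 and 0.04.

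Among the negative genes of that fit, F01F1.14, R11A5.3 and math-22 also had a negative value for number 3. R11A5.3 had 6.45, 6.63 and 6.11 in mutants and 8.09, 8.11 and 7.03 in wildtype at 20 µM. At 4 µM it had 6.86, 6.56 and 6.85 in mutants and 6.31, 5.78 and 7.32 in wildtype. The genotypes did not overlap at 20 µM, where mutants were lower, and overlapped at 4 µM. The interaction of R11A5.3 was -2.20, -2.26 and -0.45 by number, and -1.64 ± 0.56 (interval -2.88 to -0.39) over all arrays. For math-22, which encodes a MATH domain, it was -2.28, -1.89 and -0.28, and for math-26, of the same family, -1.52, -1.88 and 0.01. It was -1.74, -3.36 and 0.27 for nspe-1 and -1.51, -2.47 and 0.67 for gcy-11, a receptor-type guanylate cyclase.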

How the data were processed

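Gene expression was measured on Affymetrix C. elegans arrays, 3 for each of 4 groups. The log2 values of the deposited table were made by the authors with RMA in Partek 6.5, per the submitters' processing notes, with settings not given in the sources used here. Groups and title numbers came from the titles. No further normalization was applied. Array medians of the deposited log2 values lay between 5.74 and 5.93, and 0 arrays were identical. Gene names came from the platform annotation, dated 2016: 20810 probe sets had 1 symbol, 843 several and 895 none, and RefSeq changed 0 symbols. A gene is shown by its probe set of highest mean.

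Limma 3.58.1 in R 4.3.3 (two-sided) was fitted to 4 group means over 12 arrays, with 8 residual and 2.24 prior degrees of freedom. All 22548 tested probe sets entered the Benjamini-Hochberg adjustment behind every adjusted p from limma, and the threshold was 0.05. Errors are standard errors of this fit, and 95% intervals use a t quantile of 2.22. The script was tested on simulated data.

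The comparison, the 26 gene lists and the rules were chosen with earlier results of these data known. Named were the 12 positive and 12 negative genes whose least of 3 same-signed within-number interactions was largest, the heme trafficking list, F47D12.6, 1 probe set without a gene name, the 2 members of smallest p of a list, and the 6 positive and 6 negative genes of smallest p on numbers 1 and 2. From some lists fewer members are given.

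The labels do not say what a title number marks. Over 18 pairs of same-numbered arrays of different groups, deviations from the group means correlated with r between 0.101 and 0.817. Deviations of differently numbered arrays were not correlated. Arrays of a single number that stand apart in every group can raise r for the other numbers too. These values therefore cannot decide whether the numbers pair the arrays. As all lay above 0.1, the cutoff used, the lowest only just, a fit with the number as a block was made. Other alternatives were median centring, repeated quantile normalization, a filter on low values, a pseudocount of 16 on the linear scale, other moderation settings, array weights, and leaving out arrays.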

Additional observations from a re-analysis of the deposited data

How the results depend on the processing

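The count of interaction calls was 0 with limma under median centring, repeated quantile normalization, the filter on low values, the pseudocount, the variance trend and no moderation, with 97 to 595 probe sets at an unadjusted p under 0.05. With the title number as a replicate block it was 0 as well, with 727 probe sets at an unadjusted p under 0.05 and a smallest adjusted p of 0.0530, and the block ended or added no call. Array weights, whose estimation stopped before its tolerance was met, gave 1 call. Numbers 1 and 2 with the block, chosen after seeing the data, gave 310. Leaving out each array gave 0 calls in all 12 fits, with 186 to 1417 probe sets at an unadjusted p under 0.05; the highest counts were 1417 without the mutant array numbered 3 at 4 µM, 985 without the wildtype array numbered 3 at 4 µM and 820 without the mutant array numbered 3 at 20 µM. The cause was not tested. Among the 11274 probe sets with a mean above the median, 3100 had the same sign in all 3 numbers, 1942 positive and 1158 negative. Over all 22548 probe sets the split was 2892 and 2673, so signs leaned more to positive among probe sets of higher mean. Of the 3100, 26 had at least 1 log2 unit in each number, all positive, where fewer probe sets were counted. With the pseudocount of 16, 21 probe sets (20 positive) met that size rule, against 44 without it.

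Of 1515 alternative values of the 70 probe sets named from the lists and rules, 27 had the opposite sign, all in 5 genes near 0 or with a wide interval. The share that kept its sign was partly fixed beforehand, so it does not measure how steady the signs are. The block, the variance trend and no moderation leave the interaction value itself unchanged. Genes chosen for the same sign in every title number cannot change sign on numbers 1 and 2. The interaction of F47D12.6 was 0.0889 after repeated quantile normalization, 0.32 with array weights and 0.31 on numbers 1 and 2. That of hrg-7 was -0.13 after median centring, -0.0014 with the pseudocount, -0.24 with array weights and -0.31 on numbers 1 and 2, and that of hrg-10 was -0.16 on numbers 1 and 2. As each array was left out, values ranged between -0.21 and 0.27 for F47D12.6, between -0.23 and 0.13 for hrg-7, between -0.0631 and 0.31 for hrg-10, between -0.33 and 0.28 for mrp-5 and between -2.81 and 0.31 for Y62H9A.3. The cause was not tested. With 3 arrays a group and a median SE of 0.42, small interactions were not detectable for many probe sets.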

Other observations

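After the probe set without a gene name and F01F1.14, the probe sets of next smallest unadjusted p were picked after their values were seen, and each had a limma adjusted p of 1.00. In order of p, the interaction was 1.04 ± 0.21 (SE) for 1 probe set of cpg-8, a chondroitin proteoglycan gene, whose probe set of highest mean gave 0.88 ± 0.28. It was 1.15 ± 0.25 for unc-5, a netrin receptor, with 0.54, 1.35 and 1.55 by number, and 0.87 ± 0.20 for timm-23, a subunit of the mitochondrial protein import channel, with 0.68, 0.98 and 0.97 by number. B0252.1 had -1.21 ± 0.30, Y71F9B.9 had 1.30 ± 0.33, and after sea-1 came K09E3.7 with -0.82 ± 0.22 and srh-185 with -0.85 ± 0.23.

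Several further lists had medians near that of all genes, which was -0.02 and, after median centring, -0.16. Over 75 ribosomal protein genes the median interaction was 0.06, with 47 positive, and it was -0.08 after median centring. Over 99 lipid metabolism genes it was 0.02, and -0.11 after median centring. The 2 members of smallest p in that list had opposite signs. The interaction was -0.80 ± 0.32 for lips-16, or -0.52, -0.81 and -1.07 by number. For elo-1, a fatty acid elongase, it was 0.64 ± 0.28, or 0.58, 0.65 and 0.70 by number. Over 254 lysozyme, saposin and C-type lectin genes the median was -0.11, with 100 positive and medians by number of -0.22, -0.34 and 0.29. In the list of 17 epidermal antimicrobial peptides, cnc-2 had 1.20 ± 0.56, or 0.88, 1.06 and 1.65 by number. The other member of smallest p, nlp-33, had -0.43 ± 0.23, or -0.71, -0.51 and -0.06 by number.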
